A study of Mus musculus with 9 samples.

Results

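The glycolysis and hypoxia response genes examined here were a chosen set of 35 mouse genes that cover oxygen sensing, targets of hypoxia-inducible factors (HIFs), transport of glucose and lactate, the enzymes of glycolysis and the enzymes that direct pyruvate. They were measured on arrays of LSK cells, the bone marrow fraction without lineage markers that carries Sca-1 and Kit and holds haematopoietic stem cells and multipotent progenitors. A gene was represented by its brightest probe, and that probe had to read well above background on every array of 1 or more of the 3 groups. Of the 35 genes 33 met this, out of 13120 named genes that did, and all 33 were well above background on all 9 arrays. Epas1, for example, had a dimmer probe that did not pass, and its brighter probe was used. The remaining genes, Egln1 and P4ha1, were above background on 1 array each.

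All cells came from transplanted C57BL/6 mice and had been transduced with 1 of 3 GFP-labelled constructs: empty vector, wild-type DNMT3A, or DNMT3A with the substitution R882H. DNMT3A is a DNA methyltransferase, and acute myeloid leukaemia often carries the change R882H. There were 3 arrays per group, and each began with amplification of 3.67 ng of total RNA. The labels name no deletion of the cells' own Dnmt3a. The promoter of the vector, the age of the mice, the time after transplantation and any pooling of mice are not given in the sources used here. Because no label says that replicates came from separate mice or cultures, p-values reflect how far these samples spread, and that spread may be technical. The number of arrays limits the precision.

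In normal oxygen, prolyl hydroxylases mark the HIF alpha subunits for destruction. When oxygen is low the subunits persist, pair with a partner and bind a short core sequence near genes for glycolysis, glucose uptake and angiogenesis. Stem cells in the bone marrow live at low oxygen and are known for relying on glycolysis, and lactate dehydrogenase and pyruvate dehydrogenase kinases keep pyruvate away from the mitochondria. HIF activity is controlled mostly at the protein level, which these arrays do not measure.

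RefSeq promoter windows on build GRCm38.p6, from 250 bases before to 50 bases after a transcription start, were on hand for 31 of the 35 genes, in 48 windows. Epas1, Slc2a3, Bnip3l and Ndrg1 were not among them. The core searched was ACGTG or GCGTG on either strand, with overlapping matches merged to 1 site. It was found in 38 of the 48 windows (79.2%), against 43.8% of 32851 windows of all genes, and the narrower ACGTG in 50% against 19.6%. The windows of the set were also richer in G and C, with a median of 64.8% against 52.7%, which bears on how often such a core turns up. Counted by gene, 29 of 31 (93.5%) had a site in at least 1 window, against 46.7% of 27025 genes, and Gpi1 and Tpi1 had none. The set had more windows per gene, which raises a count made in this way. A match is a run of letters and not shown binding. The 250 bases upstream of the start are printed below for 4 genes chosen for what the arrays gave. Ak4 and Egln3 were, on the probe used, lower with R882H on every array than with empty vector. Pgk1 was the glycolytic enzyme that was so against both controls. Bnip3 was taken as a HIF target with close group means. Each reads 5′ to 3′ on the strand of its gene, and capitals mark the core on either strand.
Ak4, first of 4 listed starts (chr4:101419039-101419288, plus strand): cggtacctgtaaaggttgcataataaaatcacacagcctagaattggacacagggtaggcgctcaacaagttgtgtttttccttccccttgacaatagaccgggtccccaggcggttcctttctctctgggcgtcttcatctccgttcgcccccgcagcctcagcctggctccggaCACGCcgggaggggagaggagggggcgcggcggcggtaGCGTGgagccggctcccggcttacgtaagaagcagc
Egln3 (chr12:54203875-54204124, minus strand): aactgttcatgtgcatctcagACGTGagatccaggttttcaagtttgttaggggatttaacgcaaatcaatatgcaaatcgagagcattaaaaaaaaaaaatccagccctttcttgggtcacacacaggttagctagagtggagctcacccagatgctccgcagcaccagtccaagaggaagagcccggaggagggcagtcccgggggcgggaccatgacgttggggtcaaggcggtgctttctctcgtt
Pgk1 (chrX:106186850-106187099, plus strand): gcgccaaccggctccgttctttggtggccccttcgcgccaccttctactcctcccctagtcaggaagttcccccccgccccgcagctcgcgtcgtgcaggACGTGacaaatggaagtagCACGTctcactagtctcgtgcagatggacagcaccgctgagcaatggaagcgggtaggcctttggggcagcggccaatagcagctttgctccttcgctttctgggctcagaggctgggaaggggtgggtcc
Bnip3 (chr7:138909507-138909756, minus strand): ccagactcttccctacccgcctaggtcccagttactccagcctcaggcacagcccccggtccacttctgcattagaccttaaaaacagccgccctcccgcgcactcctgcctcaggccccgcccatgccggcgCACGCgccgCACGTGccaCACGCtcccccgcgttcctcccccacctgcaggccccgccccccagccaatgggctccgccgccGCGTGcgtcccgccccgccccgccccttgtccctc
These stretches held 2, 1, 2 and 4 sites in that order.

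Before the values, the state of the arrays has to be given. No spot was saturated, 53.4% to 64.8% of the probes on an array were well above background, and median pixel signals of 79 to 88 stood over a local background of 24 to 29. Of 12 LSK and stem cell markers 10 were above background on all 9 arrays, Kit, Ly6a, Cd34 and Flt3 among them. Markers of other cells were above background as well. Some were on 0 arrays: Ltf of granulocytes, Ms4a1 of B cells, Cd8a of T cells, Mrc1 of macrophages, Cdh5 of endothelium and Pdgfra of stroma. Others of the same lists were on all 9, such as S100a9 and Camp, Cd4, C1qb, Pecam1, Kdr and Pdgfrb. The markers on 0 arrays therefore do not show that these cells were absent. Of the markers with a probe, those above background on all 9 arrays were 7 of 11 for granulocytes and monocytes (Mpo and Elane among them), 3 of 10 for the B lineage (Cd79b, Pax5 and Vpreb1) and 5 of 10 for T and NK cells (such as Cd3e and Lck). They were 4 of 11 for macrophages and dendritic cells, 6 of 9 for mast cells, basophils and eosinophils, 6 of 11 for the erythroid line, 5 of 9 for megakaryocytes and 4 of 12 for endothelium and stroma. The 3 empty vector arrays lay on 1 slide with wild-type replicate 1, a further slide held wild-type replicates 2 and 3 with R882H replicates 1 and 2, and R882H replicate 3 lay alone, so R882H and empty vector shared no slide. The authors' deposited value table went against its column names: 2 of 9 columns held the array of the sample named, while 7 matched a different sample and 4 of these a different group. The groups here therefore rest on the labels of the scanner files. With the table's columns taken as named, the difference between R882H and empty vector changed sign for 14 of the 33 genes.

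Values are log2 signals after subtracting the log2 75th percentile of the array, given for replicates 1, 2 and 3 of a group, and differences are between group means with the standard error (SE) from limma. Levels of different genes cannot be ranked, since each probe has its own brightness. The 3 comparisons share samples in pairs and are set side by side. No gene of the set passed a Benjamini-Hochberg adjusted limma p of 0.05 in any comparison, and none of all 13120 genes did (0% called in each). At an unadjusted limma p under 0.05, R882H against empty vector had 4 of the 33 genes (9.05% of all genes called), 1 higher and 3 lower, where all genes gave 5.51% and 3.54%. R882H against wild-type DNMT3A had 2 genes (8.04% of all genes called), 1 higher and 1 lower (3.65% and 4.39% of all genes). Wild-type DNMT3A against empty vector had 1 gene (5.95% of all genes called), with 0 higher and 1 lower (3.5% and 2.45%). With the replicate number as a block, 11 of the 33 genes (10 lower) had such a p between R882H and empty vector. Of all genes 13.6% did, in either direction, and their lower share under this block was not worked out. The count was 8 with normexp background correction (8.97% of all genes) and 11 with array weights (14.9% of all genes).

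Ak4, a mitochondrial adenylate kinase and known HIF target, stood furthest from both controls. Its signal was 1.70, 2.21 and 2.33 with empty vector, 2.24, 2.17 and 2.53 with wild-type DNMT3A, and 1.07, 0.76 and 0.87 with R882H. Every R882H array lay below every control array, and the control groups overlapped. The R882H mean was 0.442 times that of empty vector, a log2 difference of -1.18 ± 0.20 (SE), and ranked 8 of 13120 genes by limma p, with a Benjamini-Hochberg adjusted p of 0.310. Against wild-type DNMT3A it was 0.376 times, a log2 difference of -1.41 ± 0.20, ranked 4 and had an adjusted limma p of 0.223. Wild-type DNMT3A differed from empty vector by 0.23 ± 0.20. Across 22 ways of processing (the one reported and 21 alternatives, leaving out arrays included) the difference from empty vector ran from -1.37 to -0.76 and that from wild-type DNMT3A from -1.5 to -0.89. The unadjusted limma p was under 0.05 in 22 of 22 for both, and the adjusted p ran from 0.141 to 0.836 and from 0.135 to 0.739. The differences smallest in size, -0.76 and -0.89, came from averaging the brighter Ak4 probe with a dimmer one. On the slide shared by R882H replicates 1 and 2 and wild-type replicates 2 and 3 the difference was -1.43. With slide as a block the difference from empty vector was -1.28. Here and below, that estimate leaves out R882H replicate 3, which had a slide to itself, and links R882H to empty vector only through the wild-type arrays, of which replicate 1 alone lay beside empty vector.

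A second, dimmer Ak4 probe read -1.33, -1.26 and -0.74 with empty vector, -1.62, -0.92 and -0.71 with wild-type DNMT3A, and -1.43, -1.66 and -1.24 with R882H. On it the groups overlapped. The differences had the same sign and were smaller, -0.33 ± 0.27 from empty vector and -0.36 ± 0.27 from wild-type DNMT3A, with unadjusted limma p of 0.25 and 0.214. The size of the Ak4 difference thus rested on the brighter probe, and where either probe lies in the transcript was not analysed here.

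**Figure D1:**
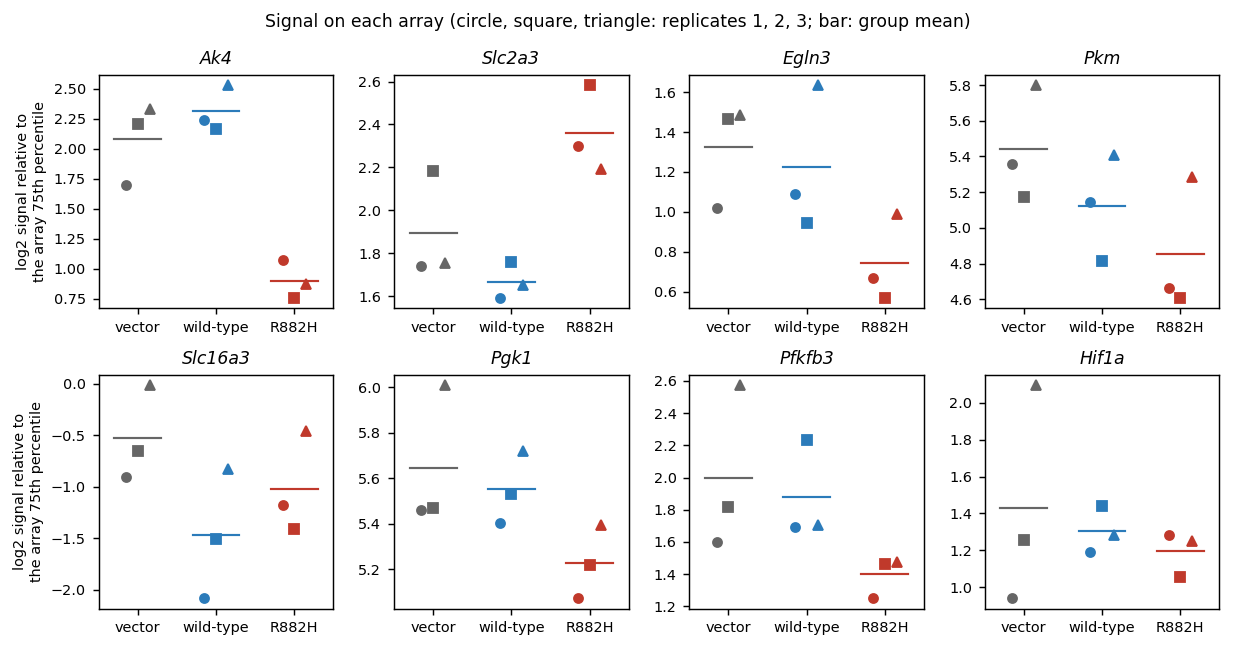
Log2 signal with the 75th percentile of the array as 0 (y axis, its range differing by gene) on each of the 9 arrays for 8 genes, by group (x axis). Circles, squares and triangles are replicates 1, 2 and 3 and bars are group means. Ak4 with R882H lies between 0.76 and 1.07, below all control arrays at 1.70 to 2.53, while Hif1a overlaps in all 3 groups.

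Among the genes of the oxygen-sensing pathway, Hif1a encodes the widely expressed HIF alpha subunit. It read 0.94, 1.26 and 2.09 with empty vector, 1.19, 1.44 and 1.28 with wild-type DNMT3A, and 1.28, 1.05 and 1.25 with R882H. Empty vector replicate 3 was the highest array and the groups overlapped. The difference between R882H and empty vector, -0.24 ± 0.27, was 0.10 without that array. Epas1, which encodes HIF-2 alpha, read 3.63, 3.84 and 3.91 with empty vector, 3.97, 3.96 and 4.0 with wild-type DNMT3A, and 4.07, 4.14 and 3.93 with R882H. Both DNMT3A groups lay above all empty vector arrays, by small steps of 0.18 ± 0.14 and 0.25 ± 0.14, with adjusted limma p of 0.874 and 0.580.

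Egln3 encodes a prolyl hydroxylase that marks HIF alpha for destruction and is itself a HIF target. It read 1.02, 1.46 and 1.49 with empty vector, 1.09, 0.94 and 1.63 with wild-type DNMT3A, and 0.67, 0.57 and 0.99 with R882H. On the probe used, R882H lay below empty vector on every array and overlapped wild-type DNMT3A. The gap was narrow, with the highest R882H array at 0.99 and the lowest empty vector array at 1.02. The difference from empty vector was -0.58 ± 0.23 (0.670-fold, unadjusted limma p of 0.0334, adjusted p of 0.523), and from wild-type DNMT3A -0.48 ± 0.23 (adjusted limma p of 0.626). A second probe gave -0.61 and -0.77 for these differences. With slide as a block the difference from empty vector was -0.90, and on the slide shared by R882H and wild-type arrays that from wild-type DNMT3A was -0.67. Without empty vector replicate 2 or 3, or R882H replicate 1 or 2, the unadjusted p against empty vector was above 0.05, reaching 0.103. Egln1, the main oxygen-sensing hydroxylase, did not pass the filter. Its probe read -3.55, -3.44 and -3.56 with empty vector, -4.31, -3.87 and -3.90 with wild-type DNMT3A, and -2.78, -4.15 and -3.57 with R882H, and only R882H replicate 1 was above background, so no difference is given.

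Vegfa, the secreted HIF target that drives vessel growth, varied more within groups than between them. It read 2.47, 3.83 and 3.51 with empty vector, 3.64, 3.87 and 2.16 with wild-type DNMT3A, and 3.15, 3.44 and 3.49 with R882H. The difference between R882H and empty vector was 0.090 ± 0.48, and a second probe had the opposite sign at -0.22.

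The glucose transporters did not behave alike. Slc2a1, which encodes GLUT1, read 1.67, 2.42 and 2.5 with empty vector, 1.90, 2.30 and 1.84 with wild-type DNMT3A, and 1.79, 2.25 and 2.27 with R882H, and all groups overlapped. Slc2a3, which encodes the high-affinity GLUT3, read 1.74, 2.18 and 1.76 with empty vector, 1.59, 1.76 and 1.65 with wild-type DNMT3A, and 2.30, 2.58 and 2.19 with R882H. Every R882H array was above every control array, narrowly so against empty vector (R882H replicate 3 at 2.19, empty vector replicate 2 at 2.18). The Slc2a3 difference was 0.46 ± 0.18 from empty vector (1.38-fold, unadjusted limma p of 0.0288, adjusted p of 0.523). From wild-type DNMT3A it was 0.69 ± 0.18 (1.61-fold, unadjusted limma p of 0.00391, adjusted p of 0.491), and on the slide shared by R882H and wild-type arrays 0.74. The latter ran from 0.58 to 0.77 over the 22 ways of processing, with an unadjusted p under 0.05 in 22 of them. The former had one in 15 of 22, with 0.31 under scaling to the array median, and the slide as a block gave 0.43 with an unadjusted p of 0.257.

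Slc16a3 encodes the lactate exporter MCT4. It read -0.91, -0.66 and -0.019 with empty vector, -2.08, -1.51 and -0.83 with wild-type DNMT3A, and -1.18, -1.41 and -0.46 with R882H. Wild-type replicate 3 reached into the empty vector range. The difference between wild-type DNMT3A and empty vector, -0.95 ± 0.38 (0.519-fold), had the smallest unadjusted limma p of the set in that comparison, 0.0348, with an adjusted p of 0.810. It was -0.69 without empty vector replicate 3, -0.64 without wild-type replicate 1, and -0.63 as the mean of both probes. On the slide of the empty vector arrays, which held a single wild-type array (replicate 1, the lowest of its group), it was -1.55. The second probe alone gave -0.32 ± 0.48. R882H overlapped both groups, at -0.49 ± 0.38 from empty vector and 0.45 ± 0.38 from wild-type DNMT3A, and the latter was -0.13 with slide as a block.

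The 12 glycolytic enzymes, from the hexokinases to pyruvate kinase, had lower means with R882H than with empty vector in 10 cases, with a median difference of -0.38, where 52.2% of all genes were lower and their median was -0.018. They were lower than with wild-type DNMT3A in 11 (median -0.25, all genes -0.014 and 51.8% lower), and wild-type DNMT3A was below empty vector in 10 (median -0.16, all genes 0.011 and 48.4% lower). Of the 12, 1 (Pkm) had an unadjusted limma p under 0.05 against empty vector (9.05% of all genes) and 0 against wild-type DNMT3A (8.04%). Groups did not overlap, with R882H the lower, for 2 of 12 against empty vector (8.96% of all genes) and 1 against wild-type DNMT3A (8.7%).

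Pkm, the pyruvate kinase gene of the final step, read 5.36, 5.17 and 5.80 with empty vector, 5.15, 4.81 and 5.41 with wild-type DNMT3A, and 4.66, 4.61 and 5.28 with R882H. R882H replicate 3 lay within the empty vector range. The difference from empty vector was -0.59 ± 0.26 (0.664-fold, unadjusted limma p of 0.0467, adjusted p of 0.543), and from wild-type DNMT3A -0.27 ± 0.26. The unadjusted p was under 0.05 in 12 of 22 ways of processing, and without empty vector replicate 3 the difference was -0.41. Pgk1, which encodes the first ATP-yielding enzyme, read 5.46, 5.47 and 6.01 with empty vector, 5.40, 5.53 and 5.72 with wild-type DNMT3A, and 5.07, 5.22 and 5.39 with R882H. All R882H arrays were below all control arrays, narrowly so (R882H replicate 3 at 5.39, wild-type replicate 1 at 5.40), and the differences were -0.42 ± 0.19 and -0.32 ± 0.19, with adjusted limma p of 0.558 and 0.676.

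Aldoa, the main aldolase gene, read 6.92, 6.49 and 7.48 with empty vector, 6.63, 6.54 and 7.24 with wild-type DNMT3A, and 6.37, 6.40 and 6.96 with R882H. Its groups overlapped, and replicate 3 was the highest array in each. Pfkl, the liver-type phosphofructokinase of the committed step, read 3.79, 3.22 and 3.67 with empty vector, 3.27, 2.67 and 3.34 with wild-type DNMT3A, and 3.00, 2.86 and 3.43 with R882H. It lay about equally below empty vector in both DNMT3A groups, at -0.46 ± 0.25 and -0.47 ± 0.25, and R882H differed from wild-type DNMT3A by 0.0050 ± 0.25. The platelet-type subunit Pfkp read 0.87, 0.94 and 0.99 with empty vector, 1.05, 0.71 and 1.04 with wild-type DNMT3A, and 0.42, 0.83 and 0.78 with R882H. On this probe only R882H and empty vector did not overlap, with a difference of -0.26 ± 0.17. A second Pfkp probe gave -0.32 ± 0.50 between them (unadjusted limma p of 0.538) and -0.24 ± 0.50 between R882H and wild-type DNMT3A.

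Hk1 and Hk2 encode hexokinases that trap glucose in the cell. Hk2, the inducible form, read 1.60, 2.13 and 2.10 with empty vector, 1.74, 1.62 and 1.97 with wild-type DNMT3A, and 1.47, 1.53 and 1.68 with R882H, a difference from empty vector of -0.38 ± 0.19 (adjusted limma p of 0.562). Hk1 read 5.26, 5.39 and 5.40 with empty vector, 5.62, 5.69 and 5.39 with wild-type DNMT3A, and 5.37, 5.51 and 5.71 with R882H. It was 1 of only 2 glycolytic enzymes with a higher mean in R882H than in empty vector, at 0.18 ± 0.16, and its second probe gave -0.032. The other was the brain-type aldolase Aldoc at 0.16 ± 0.46, which turned to -0.32 without empty vector replicate 3. The remaining enzymes, Gpi1, Tpi1, Pgam1 and Eno1, differed by -0.64 to -0.30 between R882H and empty vector and by -0.44 to -0.14 between R882H and wild-type DNMT3A, with overlapping groups.

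The array medians of the 12 enzymes, each gene taken relative to its own mean, were 0.11, -0.060 and 0.48 with empty vector, -0.045, -0.19 and 0.26 with wild-type DNMT3A, and -0.33, -0.30 and 0.074 with R882H. Replicate 3 was the highest of its group in all 3 groups, and R882H replicate 3 lay within the range of both controls. Markers of granulocytes and monocytes, of which 8 of 12 passed the filter, were arranged likewise: 0.25, -0.45 and 1.81 with empty vector, -0.26, -0.13 and 1.41 with wild-type DNMT3A, and -1.03, -1.01 and 0.0054 with R882H. Their summed level ran from 166 to 548 in empty vector, 202 to 427 in wild-type DNMT3A and 111 to 225 in R882H. Mpo, Ctsg, S100a9 and Camp were above background on every array, and Ltf on none. LSK markers ran the other way, at -0.092, 0.25 and -0.74, then 0.30, -0.0027 and -0.46, then 0.42, 0.47 and 0.034. Taking markers above background on all 9 arrays, the means with R882H were lower than with empty vector for 6 of 7 granulocyte and monocyte markers (median -1.32). They were lower for 5 of 6 of mast cells, basophils and eosinophils (-0.43). Higher means were found for 5 of 5 megakaryocyte markers (median 0.83), 2 of 3 of the B lineage (0.39) and 9 of 10 LSK markers (0.44). The same held for 4 of 4 macrophage and dendritic (0.15), 3 of 5 T and NK (0.26), 4 of 6 erythroid (0.18) and 3 of 4 endothelial and stromal markers (0.40). The part of all these markers in the differences of the enzymes and of the HIF targets was not tested, and in such a bulk sample fewer cells of a type and less RNA per cell cannot be told apart.

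The median of the 12 enzymes between R882H and empty vector was -0.23 without empty vector replicate 3, with 11 lower, and -0.32 with replicate 3 left out of all groups, again with 11 lower. With slide as a block it was -0.67. That between R882H and wild-type DNMT3A was -0.12 without wild-type replicate 3 (10 lower), and that between wild-type DNMT3A and empty vector turned to 0.042, with 4 lower, without empty vector replicate 3. Brightness moved with the result too. Of the 33 genes 13 were in the brightest of 5 equal bins of all genes and 10 in the next, and the median difference between R882H and empty vector over all genes was 0.20 in the dimmest bin and -0.12 in the brightest. After cyclic loess, which evens out such trends, the enzymes' median was -0.29, and after quantile normalization -0.30, with 10 of 12 lower under both.

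**Figure D2:**
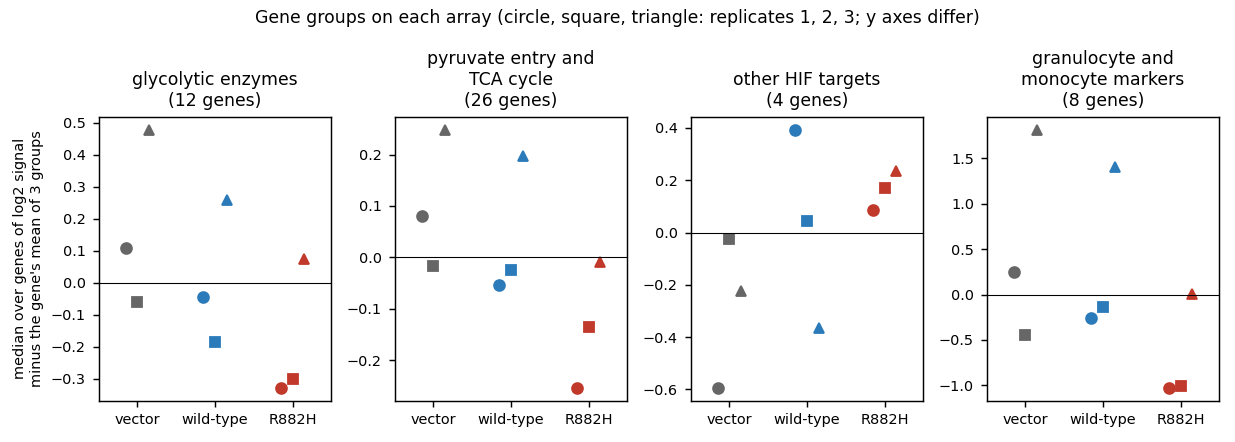
Median over genes of the log2 signal relative to each gene's mean of the 3 groups (y axis, its range differing by panel), on each array, for 4 lists. Circles, squares and triangles are replicates 1, 2 and 3. For the glycolytic enzymes and for the granulocyte and monocyte markers, replicate 3 is the highest array of every group, at 0.48, 0.26 and 0.074 and at 1.81, 1.41 and 0.0054.

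Pfkfb3 and Pfkfb4 encode enzymes that set fructose 2,6-bisphosphate, the activator of phosphofructokinase. Both had lower means with R882H. On its brighter probe Pfkfb3 lay below all control arrays, with -0.60 ± 0.27 from empty vector and -0.48 ± 0.27 from wild-type DNMT3A (adjusted limma p of 0.551 and 0.656). A second Pfkfb3 probe gave -0.33 ± 0.28 and -0.0074 ± 0.28, with overlapping groups. Pfkfb4 differed from them by -0.78 ± 0.45 and -0.55 ± 0.45, with overlapping groups. For lactate dehydrogenase, which turns pyruvate into lactate, Ldha read 6.34, 6.33 and 6.69 with empty vector, 6.37, 6.43 and 6.68 with wild-type DNMT3A, and 6.14, 6.20 and 6.44 with R882H. Its groups overlapped, with differences of -0.19 ± 0.17, -0.23 ± 0.17 and 0.042 ± 0.17 between R882H and empty vector, R882H and wild-type DNMT3A, and wild-type DNMT3A and empty vector. Ldhb differed by -0.24 ± 0.31, -0.56 ± 0.31 and 0.32 ± 0.31.

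Pyruvate dehydrogenase kinases shut the entry of pyruvate into the tricarboxylic acid cycle. Pdk1, the HIF target among them, read -0.056, 0.59 and 0.33 with empty vector, 0.31, -0.089 and 0.50 with wild-type DNMT3A, and -0.22, 0.39 and -0.042 with R882H, so its groups overlapped. Pdk2 read -0.56, 0.40 and -2.33 with empty vector, -0.30, 0.017 and -1.58 with wild-type DNMT3A, and 0.14, 0.18 and -0.64 with R882H. Replicate 3 was the lowest of each group, and the difference between R882H and empty vector, 0.72 ± 0.67, was of the size of its error. Pdk3 differed by 0.11 ± 0.16 there.

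Bnip3 and Bnip3l, HIF targets that label mitochondria for removal, showed close group means. Bnip3 read 2.57, 2.22 and 1.77 with empty vector, 2.29, 2.34 and 2.38 with wild-type DNMT3A, and 2.28, 2.51 and 2.14 with R882H. Bnip3l read 2.30, 2.51 and 2.35 with empty vector, 2.46, 2.90 and 2.09 with wild-type DNMT3A, and 2.54, 2.70 and 2.33 with R882H. The largest of their 6 differences was 0.15 ± 0.21. They thus differed in size from Ak4, with which they were listed under mitochondria, though no test of that difference was made.

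The other HIF targets were Ankrd37, Ddit4, Ndrg1, Kdm3a and P4ha1. Ddit4, an inhibitor of mTOR signalling induced by stress, read 3.05, 3.62 and 4.66 with empty vector, 3.13, 3.52 and 3.52 with wild-type DNMT3A, and 3.46, 3.79 and 4.78 with R882H. Ndrg1 read 0.23, 1.06 and 0.44 with empty vector, 1.10, 0.69 and 0.39 with wild-type DNMT3A, and 0.67, 0.99 and 0.89 with R882H, and the groups of both genes overlapped. The means of the 4 measured genes were higher with R882H than with empty vector in 4 of 4, with a median of 0.39. Of the 4, 0 had an unadjusted limma p under 0.05, where 9.05% of all genes did. Against empty vector, the histone demethylase Kdm3a differed by 0.50 ± 0.27 and the ankyrin repeat gene Ankrd37 by 0.61 ± 0.28 (adjusted limma p of 0.580 and 0.558). The groups of Ankrd37 overlapped. Those of Kdm3a did not, but only narrowly, with the lowest R882H array at -0.745 and the highest empty vector array at -0.753. The median was 0.20, with 3 of 4 higher, without empty vector replicate 1. P4ha1, a collagen prolyl hydroxylase subunit, had its only signal above background on R882H replicate 3, at -3.32, and is not compared.

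Over all 33 measured genes, R882H was lower than empty vector for 20 (60.6%, against 52.2% of all genes) with a median of -0.24, and lower than wild-type DNMT3A for 21 (63.6%, against 51.8%) with a median of -0.20. Wild-type DNMT3A was lower than empty vector for 20 (60.6%, against 48.4%), with a median of -0.053. R882H and empty vector did not overlap for 8 genes (18.4% of all genes), 3 on the higher side (9.42%) and 5 on the lower (8.96%). R882H and wild-type DNMT3A did not for 4 (15.4%), 1 higher and 3 lower (6.75% and 8.7%), and wild-type DNMT3A and empty vector for 1 (10.1%), which was higher (5.66%), with 0 lower (4.41%). Scaling to the array median moved the median of all genes between R882H and empty vector to -0.17 and that of the 33 genes to -0.40. Under it Vegfa, Pdk3, Bnip3 and Bnip3l came out lower with R882H. Of 12 genes with several detected probes, the probes differed in sign for 3 between R882H and empty vector (Bnip3l, Hk1 and Vegfa), for 2 between R882H and wild-type DNMT3A (Bnip3l and Hk1) and for 4 between wild-type DNMT3A and empty vector (Bnip3l, Egln3, Hk1 and Ldha).

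**Figure D3:**
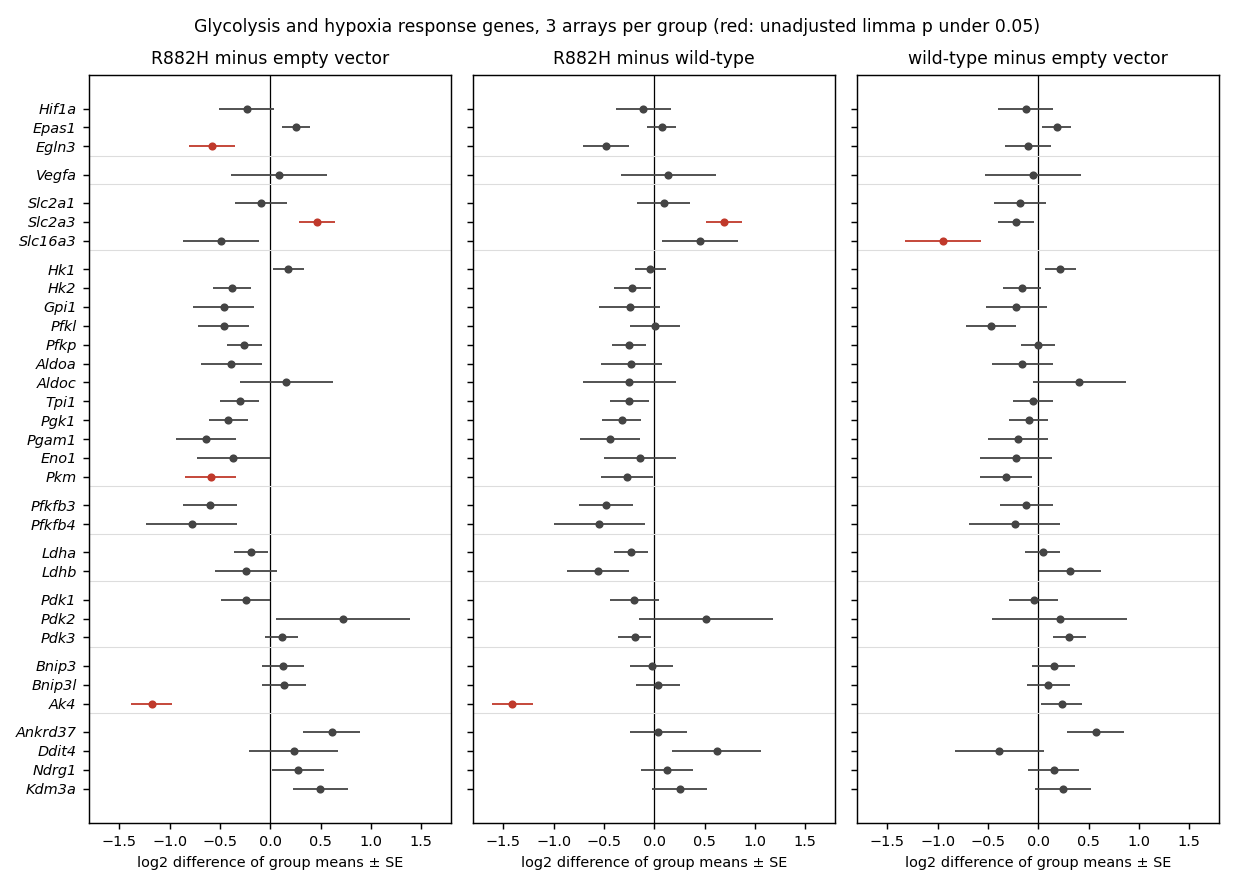
Difference of group means in log2 units (x axis) with its SE from limma for the 33 measured genes (y axis, ordered by role), in the 3 comparisons with 3 arrays per group. Red points have an unadjusted limma p under 0.05, and none passed an adjusted one. Ak4, at -1.18 and -1.41, lies furthest left in both comparisons of R882H.

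A ratio of 2 probes on 1 array does not depend on a single factor that scales the array, though trends with brightness can still move it. For this reason 10 pairs of related genes were also compared by their log2 ratio. In the 30 tests the exact two-sided permutation test could not give a p below 0.1 with 3 arrays a group, and all adjusted p-values were 0.955 or higher. Groups did not overlap in 2 of the 30. Of all ways to relabel 3 and 3 arrays, a share of 0.1 separates them fully, and 2 of 30 is not more than that share. The Hk1 to Hk2 log2 ratio was 3.66, 3.26 and 3.30 with empty vector, 3.88, 4.06 and 3.42 with wild-type DNMT3A, and 3.90, 3.97 and 4.03 with R882H, which lay 0.56 above empty vector (exact permutation p of 0.1). The Slc2a1 to Slc2a3 log2 ratio was -0.075, 0.24 and 0.74 with empty vector, 0.31, 0.54 and 0.18 with wild-type DNMT3A, and -0.51, -0.33 and 0.073 with R882H, which lay -0.60 from wild-type DNMT3A (exact permutation p of 0.1). The largest mean shifts within each comparison, of Pdk1 to Pdk2 at -0.97 from empty vector and -0.71 from wild-type DNMT3A with R882H, and of Aldoa to Aldoc at -0.57 between wild-type DNMT3A and empty vector, came with overlapping groups. Aldoc, the dimmer of its pair, read -1.04, -0.038 and -1.98 with empty vector, -0.68, -0.083 and -1.07 with wild-type DNMT3A, and -0.50, -0.83 and -1.25 with R882H.

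Beyond these genes, 92 of 104 further genes of the same pathways were measured. The 26 genes of pyruvate entry and the tricarboxylic acid cycle carry pyruvate carbon into the mitochondria and oxidise it. All had lower means with R882H than with empty vector, with a median of -0.30. Of all genes 52.2% were lower, with a median of -0.018. At an unadjusted limma p under 0.05 there were 3 of the 26, all lower (3.54% of all genes), and none after adjustment. With cyclic loess or quantile normalization 25 of 26 were lower, with slide as a block 23. Mdh2, a malate dehydrogenase, read 5.75, 5.53 and 5.91 with empty vector, 5.55, 5.52 and 5.76 with wild-type DNMT3A, and 5.22, 5.33 and 5.40 with R882H, a difference from empty vector of -0.42 ± 0.16. Mpc1, a subunit of the mitochondrial pyruvate carrier, differed by -0.54 ± 0.20 without overlap (adjusted limma p of 0.523 for both). Against wild-type DNMT3A 22 of 26 were lower (18 after cyclic loess), with a median of -0.20, and the smallest p belonged to fumarate hydratase, Fh1, at -0.51 ± 0.17 and to Pdhx of the pyruvate dehydrogenase complex at -0.88 ± 0.29, with an adjusted limma p of 0.551 for both. Between wild-type DNMT3A and empty vector 17 of 26 were lower, 12 without empty vector replicate 3, and Pdp1, a phosphatase that switches pyruvate dehydrogenase on, had the smallest p at -0.51 ± 0.16 (adjusted limma p of 0.778). Of 7 pentose phosphate genes 6 were lower with R882H than with empty vector, with a median of -0.39.

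Other hypoxia targets did not lean one way: of 34 measured, 17 were higher and 17 lower with R882H than with empty vector. At an unadjusted limma p under 0.05 there were 3 on each side, where all genes gave 5.51% higher and 3.54% lower. Gys1, muscle glycogen synthase, differed by -0.69 ± 0.22 and the histone demethylase Kdm4b by 0.58 ± 0.19, with an adjusted limma p of 0.512 for both. Against wild-type DNMT3A the collagen-modifying Plod2 differed by 1.14 ± 0.32 and the mitochondrial Fam162a by -0.40 ± 0.14 (adjusted limma p of 0.547 and 0.551), Plod2 on wild-type replicate 3 being not well above background. Of 16 other glycolysis genes 7 were higher and 9 lower with R882H than with empty vector, and Pfkfb2, a further control enzyme of fructose 2,6-bisphosphate, differed by 0.62 ± 0.23 (adjusted limma p of 0.523) and was not well above background on empty vector replicate 2. Tigar, which lowers fructose 2,6-bisphosphate, read 0.23, -1.1 and 0.025 with empty vector, -0.77, 0.47 and 0.99 with wild-type DNMT3A, and -1.40, -2.12 and -0.88 with R882H, and differed between R882H and wild-type DNMT3A by -1.70 ± 0.53 (adjusted limma p of 0.551). Slc2a6, a glucose transporter family member, read -1.87, -1.86 and -1.8 with empty vector, -1.06, 0.62 and -0.33 with wild-type DNMT3A, and -1.55, -1.45 and -1.16 with R882H. With wild-type DNMT3A it was 2.99-fold higher than in empty vector cells, at 1.58 ± 0.36 with an adjusted limma p of 0.667, and the wild-type arrays were the most spread of the 3 groups. Of 10 other oxygen-sensing genes 8 were lower with R882H than with empty vector, with a median of -0.19.

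**Figure D4:**
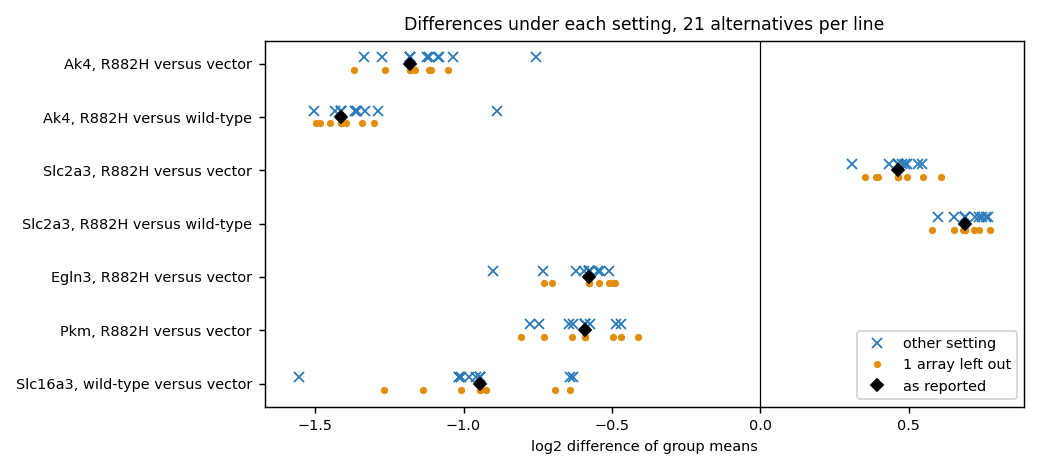
Log2 difference of group means (x axis) for the genes and comparisons with an unadjusted limma p under 0.05 (y axis). Diamonds are the values as reported, crosses another processing setting and dots 1 array left out, with 21 alternatives per line, the authors' value table not among them. All points keep their side of 0, and Ak4 against empty vector lies between -1.37 and -0.76.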

How the data were processed

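RNA of 9 samples was measured on 1-colour Agilent mouse arrays. The intensity of each spot that the authors deposited was background-corrected by Agilent Feature Extraction, per the file headers. A value table deposited by the authors gave 41839 non-control probes on a log2 scale. Set against the arrays, it was log2 intensity relative to the array's 75th percentile, centred per probe, with the same direction and a column median of 0 (-0.0023 in 1 column). Its columns did not match their names, so values from it as named mix the groups and are given for comparison only.

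Processed intensities were taken to log2 after leaving out control and outlier spots (154 to 184 spots per array), and each array's log2 75th percentile was taken off. RefSeq accessions gave 1 symbol to 27235 of 55681 probes and none to 28446. Differences were fitted with limma 3.58.1 in R 4.3.3 on all 9 arrays (lmFit and eBayes, 6 residual and 2.81 prior degrees of freedom) with Benjamini-Hochberg adjustment over 13120 genes. The scripts were tested on simulated data. The 35 genes and the pathway and marker lists were chosen with earlier results of these data known. Values on every array are given for genes with an unadjusted p under 0.05, a fixed panel, the pairs of largest shift and genes that failed the filter. For further pathway genes the 2 of smallest p under 0.05 per list and comparison are named.

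Same-numbered arrays were checked for pairing by correlating how they departed from their group's mean. The correlations for wild-type DNMT3A with empty vector were 0.116, 0.222 and 0.325. For R882H they were 0.0884, 0.198 and 0.279 with empty vector, and 0.0714, 0.137 and 0.239 with wild-type DNMT3A. Departures from a mean of 3 arrays cancel out within a group, so these values are not independent of one another. A replicate 3 that stood apart in both groups would raise all of them. They therefore cannot show which arrays belong together. The main fit used no block, and the replicate number as a block was an alternative. Alternatives were quantile, median and cyclic loess scaling, normexp background correction with an offset of 50, other filters and probe rules, slide and replicate blocks, fits of 2 groups, array weights, and leaving out arrays. Normexp used the median pixel signal. Some marker genes are not reported here.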

Additional observations from a re-analysis of the deposited data

How the results depend on the processing

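No gene, of the set or of all genes, passed the adjusted threshold in any comparison under any alternative. The median difference of the set between R882H and empty vector, -0.24, was -0.40 with scaling to the array median and -0.35 to -0.11 with 1 array left out. That between R882H and wild-type DNMT3A, -0.20, was -0.21 to -0.12 with 1 array left out. The authors' value table as named gave -0.0059 and 0.0097 for these. In it 4 of 9 columns held an array of another group, so its values mix the groups and do not measure an effect of processing. Between wild-type DNMT3A and empty vector the median difference of the set ran from -0.19 to 0.069 with 1 array left out. The latter was without empty vector replicate 3, when 15 of 33 genes changed sign. The difference of Slc16a3 between these groups turned to 0.30 with the value table as named. Of the 30 comparisons of pair ratios, 2 had groups that did not overlap, against 1 with the value table as named, 8 without replicate 3 in any group and 2 to 8 with 1 array left out, where fewer arrays make a gap easier. With the replicate block the counts of genes of the set at an unadjusted limma p under 0.05 were 11, 6 and 2 in place of 4, 2 and 1. Of these, 10, 3 and 2 were lower. All genes had 1786, 1487 and 1071 in either direction, in place of 1187, 1055 and 781. With that block 0 passed adjustment, the smallest adjusted limma p of the set being 0.164. Scaling to the array median moved the median of all genes to -0.17 between R882H and empty vector and to -0.11 between R882H and wild-type DNMT3A. Apart from Ak4 and from Slc2a3 against wild-type DNMT3A, no difference kept an unadjusted limma p under 0.05 under all 22 ways, the value table not among them. Ak4 was taken on its brighter probe, except in the way that averages detected probes. The values from the value table as named come from arrays placed in other groups. The cause of the other shifts was not tested.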
